A study of Caenorhabditis elegans with 12 samples.

Results

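The gonads of sterile *set-2* homozygotes of the fourth generation were compared with those of the heterozygous founders of the same lineages, across all genes with RNA-seq counts. The comparison used 6 of the 12 libraries of the series, 3 labelled F4 sterile and 3 labelled P0. F4 sterile animals were homozygous for *set-2*(*bn129*), an allele of the gene for the worm's SET1 histone H3 lysine 4 methyltransferase. They were scored as sterile because the uterus held no visible embryos. P0 animals carried *set-2*(*bn129*) over the balancer chromosome *qC1* with the integrated transgene *qIs26* (the labels also give *set-2*(*bn129*)/+). All samples came from strain PFR541, from animals that had been moved to 25°C, and were dissected on day 1 of adulthood. Each library pooled many gonad arms cut at the bend, and every lineage, of 3, gave 1 library to either group. F4 fertile libraries, from homozygous animals of the same generation that laid live progeny, and F2 fertile libraries entered the statistical fit. F4 fertile values are given beside a few results. No wild type and no unbalanced heterozygote was among the samples, so homozygosity for *bn129*, the number of generations and the loss of the balancer of chromosome III cannot be told apart.

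The adult hermaphrodite germline is a syncytial tube in which germ cells leave the stem cell niche at the distal end, pass through meiotic prophase and become oocytes at the proximal end. Germ cells make large amounts of RNA for ribosomes, mitochondria, P granules (germline RNA and protein condensates) and maternal stores, and they keep somatic genes and most of the X chromosome at low levels. SET-2 and the COMPASS complex place H3 lysine 4 methylation at promoters. Animals without SET-2 lose fertility over generations at high temperature, a state called a mortal germline.

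The counts on genes amounted to 5992314, 8896920 and 4692019 in F4 sterile replicates 1, 2 and 3, and to 7728189, 3456068 and 4348260 in P0 replicates 1, 2 and 3. Reads on no gene made up 9.20% ± 1.15 in F4 sterile and 13.6% ± 0.836 in P0 (SD, n = 3 each, exact permutation test, two-sided p = 0.1, the smallest that 3 against 3 allow). Markers of the gonad's own cells were present, and the summed level of 20 germline markers was 9998 to 12604 CPM (counts scaled by TMM to a common library size) in F4 sterile libraries and 16624 to 17382 CPM in P0 libraries. In a bulk sample, fewer germ cells and less RNA per germ cell cannot be told apart. Yolk genes and other intestinal markers summed to 1409 to 8032 CPM in F4 sterile and 4677 to 6189 CPM in P0, an overlapping range. Body wall muscle markers summed to 234 to 509 CPM in F4 sterile and 258 to 323 CPM in P0, and *hlh-1*, the defining muscle regulator, was at 0 in all 6 libraries. F4 sterile replicate 2 held the highest of the 3 F4 sterile values for 1597 of the 2311 genes that were higher in F4 sterile, against 412 in replicate 1 and 302 in replicate 3. Without replicate 2, the fold of 362 of these genes moved by more than 1.5 times. The value without it is given beside each gene below for which this was so.

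*set-2* itself (chromosome III, 4922391 to 4930170, build WS220) was counted at 132, 132 and 135 CPM in F4 sterile replicates 1 to 3, against 186, 197 and 194 CPM in P0 replicates 1 to 3. Every F4 sterile library was below every P0 library (log2 fold change −0.53 ± 0.07 SE, adjusted p = 8.4e-05). The position of *bn129* within the gene was not given in the sources used here, so reads on the rest of the gene neither show nor exclude the deletion. All adjusted p-values are from edgeR's quasi-likelihood test with Benjamini-Hochberg adjustment over the 8746 genes tested, and all fold changes are F4 sterile over P0 unless another pair is named.

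Of the 8746 genes tested, 2311 were higher in F4 sterile (26.4%) and 1473 were lower (16.8%). The changes differed in size. The median log2 fold change was 1.66 among the higher genes and −0.51 among the lower genes, and 1797 higher genes but 190 lower genes changed by at least 1 on the log2 scale. At 3 or more on that scale there were 148 higher and 4 lower genes. The F4 sterile and P0 libraries did not overlap for 2230 of the higher and 1429 of the lower genes. These genes had been called on the same libraries, so the separation largely follows from the call and gives no further support. Scaling by library totals in place of TMM moved the median of all genes tested by 0.14, to 0.20, and gave 2799 higher and 802 lower genes, so that 77.7% of the changed genes were higher in place of 61.1%. Under the other alternatives this share lay between 51.4% (chromosome III left out) and 63.2% (without F4 sterile replicate 3). It was 52.1% without F4 sterile replicate 2 and 52.7% to 53.8% without single P0 libraries. The library names fall into 3 prefixes, which may mark batches. F4 sterile replicate 2 shares its prefix with P0 replicate 1, and F4 sterile replicate 3 shares its prefix with P0 replicates 2 and 3. In both within-prefix differences, which use libraries that are also in the test, 2308 of the 2311 higher genes and all 1473 lower genes kept their direction.

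The direction followed the level in P0. Among 1229 genes with more than 200 CPM in P0, 42.3% were lower and 5.13% were higher in F4 sterile. Among 2628 genes of 50 to 200 CPM, 22.5% were lower and 10.3% higher. Between 10 and 50 CPM (1789 genes), 13.5% were lower and 24.1% higher. Between 1 and 10 CPM (2534 genes), 4.70% were lower and 43.2% higher. Genes at or below 1 CPM entered the test only if they were high in another group, so their share of 79.7% higher is no result. Genes just above 1 CPM could enter that way too, so the filter may have raised the higher share at 1 to 10 CPM. How far it did was not tested. The higher genes together held 11.7%, 14.6% and 12.2% of all counts in F4 sterile replicates 1 to 3 and 5.98%, 5.73% and 5.96% in P0 replicates 1 to 3. The lower genes held 33.2%, 32.8% and 34.4% in F4 sterile and 44.4%, 44.0% and 43.7% in P0.

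**Figure D1:**
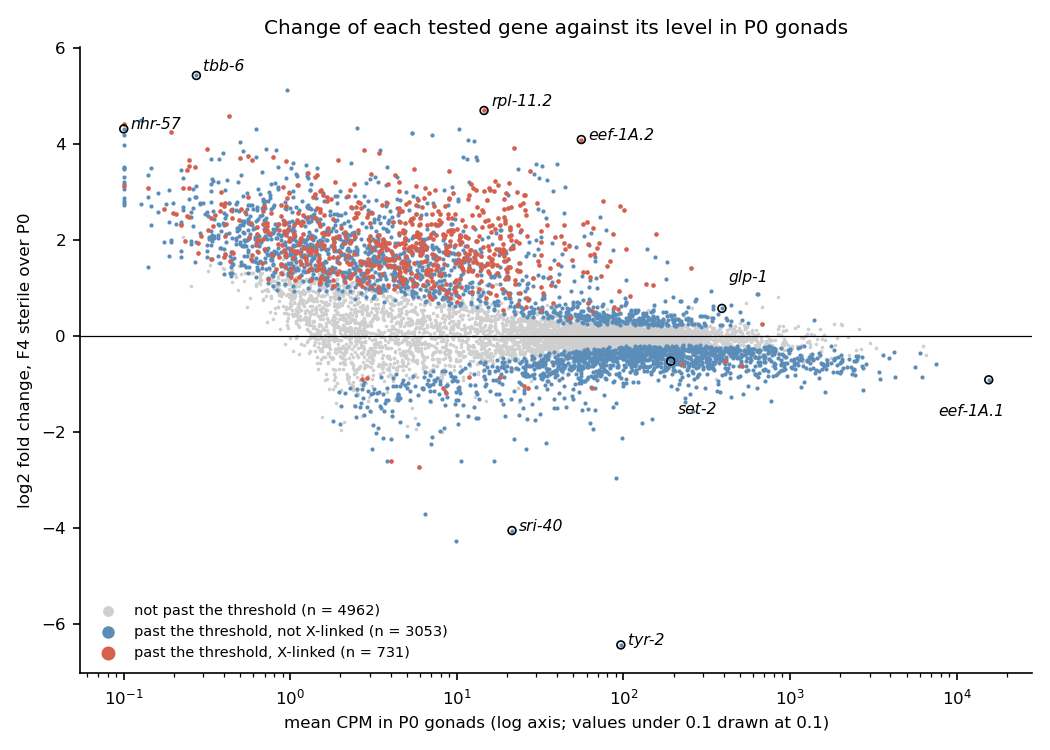
Log2 fold change of F4 sterile over P0 against the mean level in P0 (CPM, log axis) for the genes tested, with the genes of adjusted p under 0.05 coloured by linkage (X-linked red, others blue) and the rest grey. Lower genes lie at the well-expressed end and close to the zero line, and higher genes reach further from it at low P0 levels.

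X-linked genes rose far more often than others. Of 971 X-linked genes tested, 717 were higher (73.8%) and 14 were lower (1.44%), with a median log2 fold change of 1.58. Of 7773 autosomal genes, 1594 were higher (20.5%) and 1458 lower (18.8%), with a median of −0.00. The X chromosome took 3.26%, 5.34% and 4.10% of all counts in F4 sterile replicates 1 to 3, against 1.68%, 1.49% and 1.54% in P0 replicates 1 to 3. All F4 sterile libraries were above all P0 libraries (4.23% ± 1.04 against 1.57% ± 0.0959, SD, n = 3 each, exact permutation test, two-sided p = 0.1, the smallest possible). Within the library prefixes the X-linked median was 1.80 and 1.51. The X-linked share exceeded the autosomal share at each P0 level up to 200 CPM. At 1 to 10 CPM in P0, a class that the filter may also have shaped, it was 69.1% against 35.8%. At 10 to 50 CPM in P0, 80.4% of X-linked and 15.6% of autosomal genes were higher, and at 50 to 200 CPM these shares were 85.3% (of 34 X-linked genes) and 9.29%. Above 200 CPM, 2 of 12 X-linked genes were higher. Chromosome III, which the balancer covers in P0, had 22.1% of its 1700 genes higher and 16.1% lower, close to the autosomal shares. The X-linked median was 0.86 for F4 fertile over P0, a difference that shares its P0 libraries with this one.

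**Figure D2:**
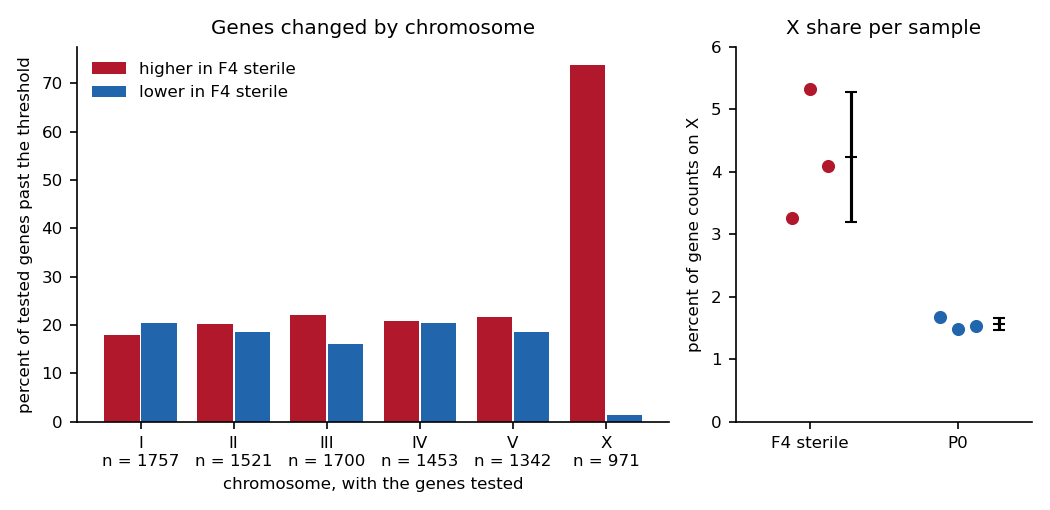
Bars on the left give the percentage of tested genes of each chromosome that were higher (red) or lower (blue) in F4 sterile than in P0, and points on the right the percentage of counts on the X in each library with mean and SD. The X chromosome stands apart at 73.8% higher and 1.44% lower, whereas the autosomes lie near 20.5% higher and 18.8% lower.

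Several functional groups held the split by chromosome seen over all genes, where 73.8% of X-linked and 20.5% of autosomal genes were higher. Above 200 CPM in P0, 5.01% of autosomal genes were higher. Each group had few X-linked members, so a split particular to these groups was not shown. All 6 X-linked subunits of the respiratory chain and ATP synthase were higher and 0 lower, against 1 higher and 10 lower of 40 autosomal subunits. All 4 X-linked P granule genes were higher, against 0 higher and 15 lower of 17 autosomal ones. The counts were 2 of 2 against 0 of 77 for cytosolic ribosomal proteins and 3 of 3 against 1 of 35 for translation factors (higher genes of the X against higher genes of the autosomes). Of the enzymes and readers of H3K27, H3K36 and H3K9 methylation, all 5 X-linked ones were higher, and 1 of 17 autosomal ones was higher and 3 were lower.

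The largest rises among well-measured genes included X-linked and autosomal genes. *tbb-6*, a divergent beta-tubulin induced by mitochondrial stress, had 6.44, 55.1 and 12.96 CPM in F4 sterile replicates 1 to 3, against 0.281, 0.298 and 0.240 CPM in P0. All 3 F4 sterile libraries were above P0, with replicate 2 the highest (log2 fold change 5.42 ± 0.82, adjusted p = 0.00021, and 3.98 without F4 sterile replicate 2). *aldo-1*, a glycolytic aldolase, had 38.3, 114 and 17.3 CPM in F4 sterile and 2.53, 2.09 and 2.88 CPM in P0 (4.34 ± 0.65, adjusted p = 0.00021, and 3.24 without that replicate). *fmi-1*, a cadherin of the Flamingo family that acts in axon guidance, had 17.8, 28.3 and 8.15 CPM in F4 sterile and 0.562, 0.596 and 0.720 CPM in P0. Its F4 sterile values were all more than 10 times its P0 values (4.30 ± 0.52, adjusted p = 3.9e-05).

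By the number of reads gained, the elongation factor *eef-1A.2* led (X, 7823601 to 7825718). It had 641, 1331 and 898 CPM in F4 sterile replicates 1 to 3, against 61.1, 54.6 and 51.8 CPM in P0 (4.09 ± 0.32, adjusted p = 2.1e-06). The polycomb-like gene *spat-3*, a ubiquitin ligase for histone H2A, had 612, 591 and 673 CPM in F4 sterile and 111, 86.5 and 103.4 CPM in P0. Its replicates were close to each other in both groups (2.63 ± 0.13, adjusted p = 4.3e-08). The endoplasmic reticulum chaperone *hsp-3* (X) had 504, 894 and 659 CPM in F4 sterile and 187, 118.98 and 166 CPM in P0 (2.12 ± 0.19, adjusted p = 4.2e-06).

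Histone genes were prominent among the rises. Of 78 tested histone genes, 41 were higher (52.6%, beside 26.4% of all genes) and 2 lower. Their median log2 fold change was 0.76 beside 0.05 over all genes tested. Without single libraries 34 to 46 were higher and 1 to 5 lower, with medians of 0.47 to 0.89. Their summed level overlapped, at 34220 to 51651 CPM in F4 sterile and 30090 to 36872 CPM in P0 (exact permutation test, two-sided p = 0.3). The 41 include linker histone *his-24*, the H3.3 genes *his-71* and *his-72*, and many members of the replicative clusters, which encode the core histones packed onto new DNA. *his-32*, a replicative H3 gene, had 104.3, 345 and 184 CPM in F4 sterile replicates 1 to 3, against 10.5, 7.45 and 12.7 CPM in P0 (4.31 ± 0.47, adjusted p = 2.0e-05, and 3.67 without F4 sterile replicate 2). *his-8* (H2B) had a log2 fold change of 4.23, *his-1* (H4) of 3.58 and *his-6* of 3.54. These 3 were at 3.48, 2.94 and 2.92 without F4 sterile replicate 2. The call of *his-72* (0.50) was lost without that replicate (0.24, adjusted p = 0.18), without P0 replicate 2 (0.31, adjusted p = 0.15) and without P0 replicate 3 (0.41, adjusted p = 0.086). *his-71* (2.21) was at 1.55 without F4 sterile replicate 2 and at 2.81 without P0 replicate 1. *hcp-3*, the centromeric H3 variant, was lower (−0.37), a call lost with library totals (adjusted p = 0.13). Replicative histone genes are near-identical copies and only uniquely mapped reads were counted, so the share of each copy is uncertain. Of 37 tested DNA replication genes 1 was higher and 6 were lower (10 lower without P0 replicate 1). The 16.2% lower lay near the 16.8% of all genes.

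Genes with few or no reads in P0 were also among the higher ones. Of 14705 genes with at most 3 counts over the 3 P0 libraries and a count in some library, 51 passed the expression filter and 50 were higher with a count in every F4 sterile library. Such genes could pass only through a group where they are high, so this count supports nothing by itself, 5 of the 50 had no count in P0, and it moved between 32 and 363 with the filter and the samples fitted. They had 1.01 to 9.84 CPM in F4 sterile (median 3.05), and 13 were X-linked. Against a floor of 3 counts over the P0 group (0.205 CPM), they were at least 5.48 to at least 53.6 times higher. *rgs-6*, a regulator of G protein signalling, had 9.81, 8.59 and 9.41 CPM in F4 sterile replicates 1 to 3 and 0.281, 0 and 0 CPM in P0, at least 44.8-fold higher. *nhr-57*, a nuclear receptor gene and known target of the hypoxia factor HIF-1, had 5.21, 7.94 and 4.81 CPM in F4 sterile and 0 in all P0 libraries, at least 30.95-fold higher. The serotonin receptor *ser-1* and the tubulin acetyltransferase *atat-2* were at least 53.1-fold and at least 31.2-fold higher. The fitted log2 fold change of *ser-1* was 4.24, and 3.397 without F4 sterile replicate 2. These levels are low, and the counting floors cover counting error only.

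Transcription factors of somatic development were often higher among the members that could be tested. Members at or below 1 CPM in P0 could pass the filter only through a group where they are high. The counts above that level, chosen after values were seen, are therefore given too. There 22.7% of all genes were higher and 18.007% lower. Members just above 1 CPM in P0 could also pass through another group, so these counts are not free of the filter. Of 276 nuclear hormone receptors 73 were tested, and 53 were higher and 3 lower, with a median log2 fold change of 1.497. Above 1 CPM in P0 there were 52 receptors, with 35 higher and 3 lower. All 13 X-linked ones were higher, and 40 of 60 autosomal ones. *nhr-48* (X) had 58.7, 86.7 and 117 CPM in F4 sterile replicates 1 to 3 and 20.5, 21.2 and 19.9 CPM in P0 (2.07 ± 0.25, adjusted p = 3.8e-05). *nhr-46* on chromosome IV had 40.8, 50.9 and 43.5 CPM in F4 sterile and 16.4, 12.8 and 12.7 CPM in P0 (1.65 ± 0.17, adjusted p = 1.1e-05). Lower receptors included *nhr-23*, a regulator of moulting (−0.35), and *nhr-86* (−0.79). The call of *nhr-23* was lost with library totals (adjusted p = 0.14).

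Of 31 tested homeobox factors 14 were higher and 2 lower (median 0.84), and above 1 CPM in P0 11 of 27 were higher. The ONECUT gene *ceh-39*, an X-signal element in sex determination, had 86.9, 151 and 157 CPM in F4 sterile replicates 1 to 3 and 22.1, 16.7 and 22.3 CPM in P0 (2.66 ± 0.21, adjusted p = 1.9e-06). Its neighbour *ceh-41* rose likewise (2.82). Of 32 bHLH and bZIP factors 19 were higher and 1 lower (median 1.16), and above 1 CPM in P0 17 of 30 were higher. *mml-1*, a Myc-family metabolic regulator, had 42.02, 53.6 and 47.4 CPM in F4 sterile and 4.35, 2.98 and 4.08 CPM in P0 (3.51 ± 0.28, adjusted p = 2.0e-06). *hlh-30*, which controls autophagy and lysosome genes, was also higher (1.60). Of 16 T-box, forkhead, Sox, Ets and GATA factors 12 were higher and 0 lower, and above 1 CPM in P0 11 of 14 were higher. The 12 were 7 without P0 replicate 1 and 7 without P0 replicate 2. The hypodermal GATA factor *egl-18* was among them, with 32.97, 26.9 and 31.4 CPM in F4 sterile and 10.8, 8.35 and 11.5 CPM in P0 (1.53 ± 0.20, adjusted p = 8.3e-05). The heterochronic genes *hbl-1* (3.74) and *lin-14* (2.45), which set the timing of larval cell fates, were higher, *lin-14* being named after its values were seen. The cilium regulator *daf-19*, an RFX factor, had 62.7, 80.6 and 73.8 CPM in F4 sterile and 10.1, 5.96 and 9.11 CPM in P0 (3.03 ± 0.24, adjusted p = 2.4e-06).

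The TGF-beta pathway, in which a secreted ligand binds a receptor pair that phosphorylates SMAD proteins, rose below the ligand. The ligand *daf-7* was not called (−0.88, adjusted p = 0.076) and *dbl-1* did not reach the expression filter. Of 21 tested members 15 were higher and 0 lower (median 1.68). Above 1 CPM in P0 11 of 17 were higher and 0 lower (median 1.27), beside 22.7% of all genes higher above that level. Among the receptors, *daf-1* (type I) had 51.8, 70.8 and 66.7 CPM in F4 sterile replicates 1 to 3 and 18.5, 13.7 and 16.8 CPM in P0 (1.91 ± 0.16, adjusted p = 2.4e-06), and *daf-4* (type II) was higher by 1.25 ± 0.17. The receptor *sma-6* (0.13) was not called. The SMAD genes *daf-8* (2.49), *daf-14* (2.72), *daf-3* (1.77), *sma-3* (3.03) and *sma-4* (3.51) were higher, and *sma-2* (0.50) was not called. *sma-4* had 8.89, 19.1 and 9.82 CPM in F4 sterile and 0.843, 1.19 and 0.480 CPM in P0 (SE 0.42, adjusted p = 3.6e-05). *sma-3* had 5.21, 9.14 and 4.60 CPM in F4 sterile and 0.983, 0 and 0.240 CPM in P0, and its log2 fold change was 3.83 without P0 replicate 1. The kinase *kin-29*, which acts in body size control, was higher by 2.57 ± 0.28.

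Other signalling pathways moved in part. In the insulin pathway, 6 of 13 tested genes were higher and 3 lower. The receptor *daf-2* had 498, 493 and 530 CPM in F4 sterile replicates 1 to 3 and 351, 344 and 334 CPM in P0 (0.56 ± 0.08, adjusted p = 9.2e-05). The 4 X-linked members, the kinases *pdk-1* (1.92) and *akt-2* (2.08), the substrate *ist-1* (2.04) and the 14-3-3 gene *ftt-2* (2.34), were higher, whereas *akt-1* (−0.71), *age-1* (−0.44) and the 14-3-3 gene *par-5* (−0.50) were lower. In the Wnt pathway 7 of 22 were higher and 2 lower, shares of 31.8% and 9.09% near the 26.4% and 16.8% of all genes, and the median of 0.22 was −0.01 without P0 replicate 1. The ligand *mom-2* (−0.12) and the receptor *mom-5* (0.14) were not called. Of 10 tested genes of the HIF-1 and hypoxia response 6 were higher. Above 1 CPM in P0 3 of 7 were higher (median 0.40), beside 22.7% of all genes above that level. The 6 include *hif-1* itself (1.17) and the hydroxylase that marks it for destruction, *egl-9* (2.38). *vhl-1* (2.00), whose product then recruits the ubiquitin ligase, was called except without P0 replicate 3 (adjusted p = 0.051).

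Of 46 tested ion channels and neurotransmitter receptors, out of 269, 27 were higher and 2 lower (median 1.44, and 6 lower without F4 sterile replicate 2). Above 1 CPM in P0 14 of 32 were higher and 2 lower, beside 22.7% of all genes higher above that level. Of all 23 tested G protein and RGS genes 12 were higher and 0 lower, and above 1 CPM in P0 8 of 19 were higher and 0 lower. The voltage-gated calcium channel *unc-2* (X) had 14.6, 32.96 and 12.7 CPM in F4 sterile replicates 1 to 3 and 2.67, 0.895 and 4.32 CPM in P0 (2.77 ± 0.44, adjusted p = 0.00032, and 2.13 without F4 sterile replicate 2). Of 11 tested markers of neurons 10 were higher and 0 lower, and above 1 CPM in P0 9 of 10 were higher. All detected neuronal markers summed to 209 to 277 CPM in F4 sterile and 113.01 to 121 CPM in P0. The Sec1 family protein *unc-18*, needed for synaptic vesicle fusion, had 28.4, 69.7 and 45.1 CPM in F4 sterile and 6.46, 7.16 and 9.59 CPM in P0 (2.59 ± 0.31, adjusted p = 3.6e-05). The neuronal markers *rab-3* and *snt-1* were at low levels in both groups, with higher means in F4 sterile. *rab-3* averaged 0.99 CPM in F4 sterile and 0.05 CPM in P0, and *snt-1* 0.39 CPM in F4 sterile and 0.09 CPM in P0. Of 1237 chemoreceptor genes 11 were tested, with 0 higher and 5 lower, and of 148 neuropeptide genes 7 were tested, with 1 higher and 1 lower. The part of carried-over neurons in these values was not tested.

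Of 24 basement membrane and integrin genes 20 were higher and 0 lower, with a median of 1.55 (0.96 without F4 sterile replicate 2). Above 1 CPM in P0 18 of 22 were higher and 0 lower. *mig-6*, the papilin of the basement membrane along which distal tip cells migrate, had 46.5, 126 and 75.4 CPM in F4 sterile replicates 1 to 3 and 9.97, 8.35 and 9.83 CPM in P0 (log2 fold change 3.09). The laminin subunit *lam-2* (1.71), the nidogen *nid-1* (2.04), the type IV collagen chain *let-2* (1.498) and the integrin *ina-1* (1.09) were higher. *let-2* was at 0.89 without F4 sterile replicate 2. The other type IV chain *emb-9* (1.24) lost its call without F4 sterile replicate 2 (0.70, adjusted p = 0.086) and without P0 replicate 2 (0.96, adjusted p = 0.059), and so did the perlecan *unc-52* (1.38, at 0.84 with adjusted p = 0.098 and at 1.06 with adjusted p = 0.068). Of 13 innexins, the gap junction proteins, 8 were higher and 1 lower, and above 1 CPM in P0 7 of 12 were higher and 1 lower. *inx-3* (X) had 72.5, 71.1 and 56.2 CPM in F4 sterile and 17.8, 17.3 and 23.3 CPM in P0 (1.76 ± 0.17, adjusted p = 6.7e-06). The germ cell innexins *inx-14*, *inx-21* and *inx-22*, which couple germ cells to the somatic sheath, were not called (−0.30, −0.05 and −0.23). Of 44 tested cuticle collagens 5 were higher and 4 lower (median 0.19). The 5 were 2 without F4 sterile replicate 2, with a median of −0.84, and 2 without P0 replicate 3, with a median of −0.08. Markers of the gonadal sheath and distal tip cells, tissues that lie beneath these membranes, summed to 328 to 344 CPM in F4 sterile and 335 to 347 CPM in P0, of which *vab-1* made up the most, and 2 of the 5 tested were higher and 1 lower.

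**Figure D3:**
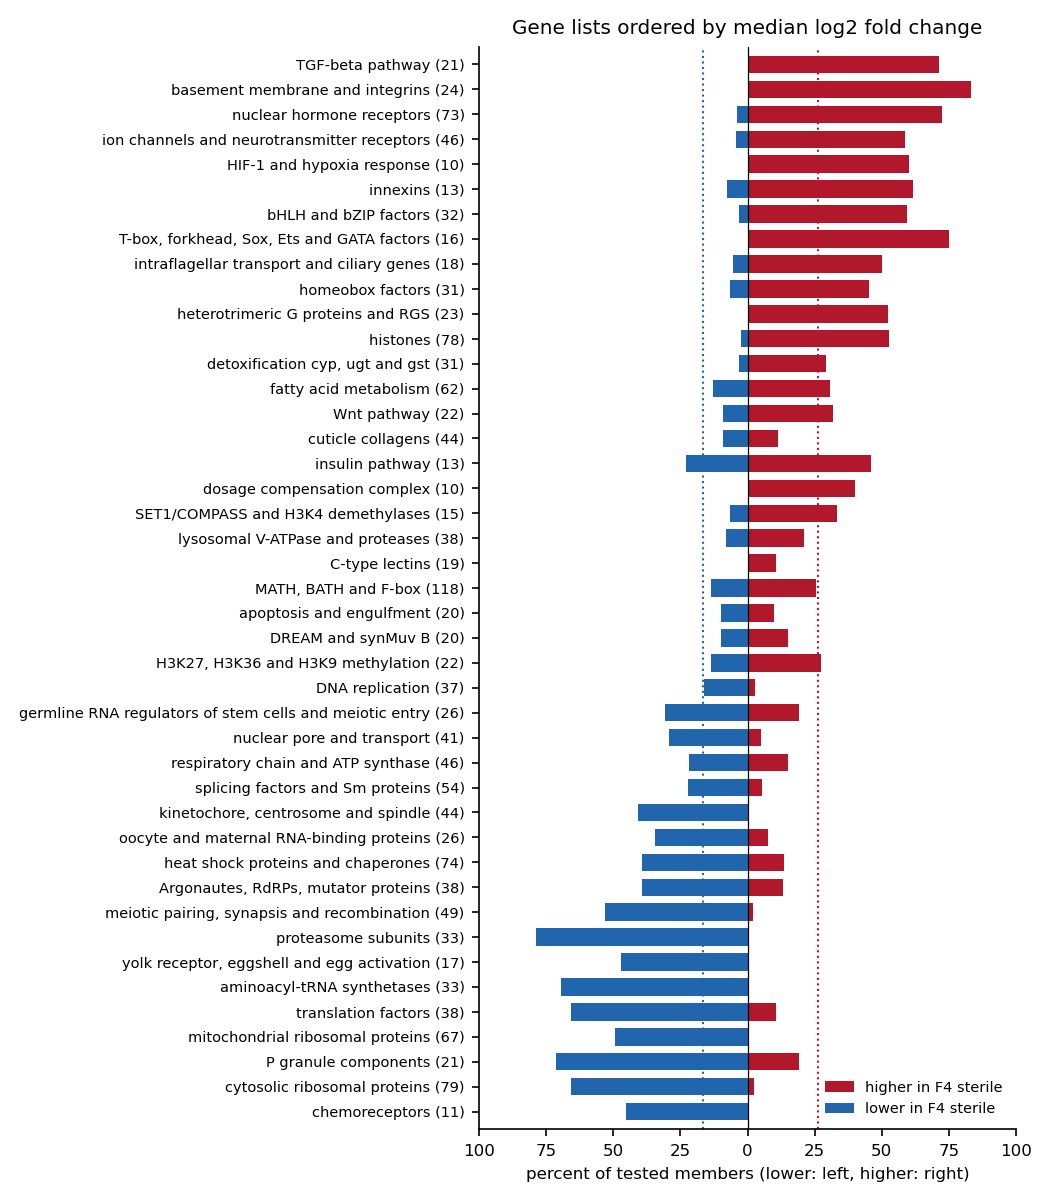
Percentage of tested members (number in brackets) higher (red, right) and lower (blue, left) in F4 sterile than in P0 for gene lists ordered by median log2 fold change, with dotted lines at 26.4% and 16.8%, the shares over all genes tested. Red bars of somatic regulator, signalling and matrix lists at the top pass the red line, and blue bars of growth machinery and P granule lists at the bottom pass the blue line. Bars include members at or below 1 CPM in P0, which could pass the filter only through a group where they are high. Above 1 CPM in P0, 22.7% of all genes were higher. There the share was 78.6% for T-box and related factors and 67.3% for nuclear hormone receptors. It was 43.75% for ion channels and neurotransmitter receptors, and 16.7% for detoxification genes, the last below 22.7%.

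Among chromatin genes the rises fell mainly on polycomb-like and X-linked members. Of 6 polycomb-like genes 5 were higher (median 2.66), beside 26.4% of all genes. *sop-2*, *lin-59*, *utx-1* and *jmjd-3.1*, named here, were among the genes that the study picked for RNAi. Those genes were chosen on these libraries, so their direction is not independent. *sop-2*, a SAM domain protein that restricts homeotic gene expression, had 159, 162 and 154 CPM in F4 sterile replicates 1 to 3 and 20.2, 17.6 and 23.3 CPM in P0 (2.93 ± 0.11, adjusted p = 3.7e-09). *lin-59*, an Ash1-type methyltransferase homologue, had 256, 278 and 256 CPM in F4 sterile and 45.4, 42.6 and 44.6 CPM in P0 (2.56 ± 0.12, adjusted p = 3.7e-08). Neither gene overlapped between the groups, and both are autosomal. The H3K27 demethylase *utx-1* (X) had 102, 162 and 142 CPM in F4 sterile and 18.4, 11.3 and 17.99 CPM in P0 (3.03 ± 0.28, adjusted p = 5.7e-06), and its relatives *jmjd-3.1* (3.34) and *jmjd-3.2* (2.70, and 2.05 without F4 sterile replicate 2) were higher too. The H3K27 methyltransferase gene *mes-2* (−0.06) and the H3K36 methyltransferase genes *mes-4* (−0.05) and *met-1* (0.22) were not called, whereas *mes-6*, the partner of MES-2, was lower (−0.70). *mes-3* (0.36) lost its call without F4 sterile replicate 2 (0.24, adjusted p = 0.059) and without P0 replicate 1 (0.19, adjusted p = 0.11). *set-25*, an H3K9 methyltransferase gene, was lower (−0.45).

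Of 15 genes listed under COMPASS and the H3K4 demethylases 5 were higher (33.3%, near the 26.4% of all genes) and 1 lower, the lower being *set-2*. All 3 X-linked ones were higher, and 2 of 12 autosomal ones. The 5 higher ones include the H3K27 demethylase gene *utx-1*, which is also counted among the H3K27, H3K36 and H3K9 methylation genes. *cfp-1*, the CpG-binding subunit, had 217, 191 and 212 CPM in F4 sterile replicates 1 to 3 and 148, 148 and 142 CPM in P0 (0.50 ± 0.07, adjusted p = 0.00020). The H3K4 demethylase *lsd-1* (X) had 55.7, 75.5 and 86.7 CPM in F4 sterile and 15.7, 15.2 and 16.8 CPM in P0 (2.17 ± 0.21, adjusted p = 7.8e-06). Of 10 dosage compensation genes, which in somatic cells lower expression of both X chromosomes, 4 were higher (40%) and 0 lower. Both X-linked ones were higher, and 2 of 8 autosomal ones (autosomal median 0.08). *dpy-27*, the subunit found only in this complex, had 113.2, 133 and 112 CPM in F4 sterile and 28.2, 24.7 and 36.2 CPM in P0 (1.99 ± 0.21, adjusted p = 1.4e-05). The repressors of germline genes in the soma moved little outside the X, with 3 of 20 DREAM and synMuv B genes higher and 2 lower. The X-linked *lin-15B* (2.36) and *lin-15A* (2.04) were 2 of the 3. They lie next to each other in 1 operon.

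The growth machinery fell broadly and by small amounts. Over all genes tested 16.8% were lower, and by P0 level 42.3% above 200 CPM and 22.5% at 50 to 200 CPM. The lists were not compared with genes of like level. Of 79 tested cytosolic ribosomal protein genes 52 were lower and 2 higher (median −0.50), and of 67 mitochondrial ribosomal protein genes 33 were lower and 0 higher (median −0.37). Proteasome subunits (26 of 33 lower, 0 higher, median −0.32), aminoacyl-tRNA synthetases (23 of 33 lower, 0 higher, median −0.36) and translation factors (25 of 38 lower, 4 higher, median −0.37) followed. *rpl-3* had 1956, 2703 and 2470 CPM in F4 sterile replicates 1 to 3 and 4662, 4118 and 4074 CPM in P0 (−0.85 ± 0.14, adjusted p = 0.00034). The translation initiation factor *eif-3.C* had 463, 417 and 451 CPM in F4 sterile and 781, 836 and 760 CPM in P0 (−0.84 ± 0.10, adjusted p = 3.3e-05). Both were below P0 in every F4 sterile library. The main elongation factor *eef-1A.1* lost the most reads, with 7355, 8635 and 8766 CPM in F4 sterile and 16584, 15035 and 15120 CPM in P0 (−0.92 ± 0.12, adjusted p = 7.3e-05).

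Chaperones divided, with 29 of 74 lower (39.2%) and 10 higher (13.5%), beside 16.8% and 26.4% of all genes. All tested CCT chaperonin subunits that were called, such as *cct-1* (−0.71), and the cytosolic chaperones *hsp-1* (−0.86) and *hsp-90* (−0.65) were lower. Both worm homologues of BiP, the main chaperone of the endoplasmic reticulum, changed in opposite directions, *hsp-3* on the X being higher as above and *hsp-4* having 334, 316 and 412 CPM in F4 sterile replicates 1 to 3 and 641, 605 and 619 CPM in P0 (−0.81 ± 0.10, adjusted p = 3.3e-05). *pek-1*, the X-linked sensor kinase of the unfolded protein response, had 97.5, 158 and 158 CPM in F4 sterile and 23.03, 18.5 and 21.6 CPM in P0 (2.68 ± 0.21, adjusted p = 1.9e-06). Splicing factors (12 of 54 lower, median −0.15), nuclear pore and transport genes (2 of 41 higher, 12 lower, median −0.12) and DNA replication genes (median −0.07) lay closer to the median of all genes. With library totals the medians of the last 2, of the respiratory chain and of the germline stem cell regulators lay just above 0 in place of just below it.

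Most germline markers fell, and each was still counted in both groups. Of 20 germline markers 16 were lower and 1 higher, 0 were without counts, and each F4 sterile sum was below each P0 sum (mean 11636 CPM in F4 sterile, 16893 CPM in P0, exact permutation test, two-sided p = 0.1). The 1 higher marker, the synaptonemal complex gene *syp-1* (0.49), lost its call without P0 replicate 1 (adjusted p = 0.057). Of 49 genes of meiotic pairing, synapsis and recombination 26 were lower and 1 higher (median −0.29). *dsb-1*, needed for meiotic double-strand breaks, had 54.7, 38.3 and 50.996 CPM in F4 sterile replicates 1 to 3 and 93.1, 98.7 and 106 CPM in P0 (−1.05 ± 0.13, adjusted p = 3.9e-05). *htp-3*, a core protein of the meiotic chromosome axis, had 139, 121 and 127 CPM in F4 sterile and 217, 217 and 209 CPM in P0 (−0.73 ± 0.08, adjusted p = 3.0e-05). Of 44 kinetochore, centrosome and spindle genes 18 were lower (40.9%) and 0 higher. Over all genes tested 16.8% were lower, and by P0 level 42.3% above 200 CPM and 22.5% at 50 to 200 CPM. Whether the meiotic and kinetochore lists differ from genes of like level was not tested.

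P granule genes split by chromosome, as did the genes tested as a whole. The constitutive autosomal components were lower, with *pgl-3* at 260, 247 and 289 CPM in F4 sterile replicates 1 to 3 and 481, 497 and 472 CPM in P0 (−0.87 ± 0.08, adjusted p = 5.7e-06). *pgl-1* (−0.60) and *deps-1* (−0.63), needed for granule assembly, were lower as well, and *glh-1*, a Vasa helicase (−0.30), lost its call without F4 sterile replicate 1 (adjusted p = 0.094) and without replicate 3 (adjusted p = 0.063). The 4 X-linked *meg* genes, whose products build granules in embryos, were higher by 1.05 to 2.20, and *meg-2* had 92.3, 149 and 100 CPM in F4 sterile and 29.1, 18.8 and 24.9 CPM in P0. Of 38 Argonautes, RNA-dependent RNA polymerases and mutator proteins, which make and use small RNAs, 15 were lower (39.5%) and 5 higher (13.2%). Over all genes tested 16.8% were lower and 26.4% higher, and above 200 CPM in P0 42.3% were lower. The lower small RNA genes include germline Argonautes. *hrde-1* had 1246, 1038 and 1195 CPM in F4 sterile and 2064, 1955 and 1960 CPM in P0 (−0.78), *wago-4* had 340, 274 and 287 CPM in F4 sterile and 632, 656 and 614 CPM in P0 (−1.08 ± 0.10, adjusted p = 4.0e-06), and *csr-1* was lower by −0.73. No library overlapped between the groups for *hrde-1* or *wago-4*. The 5 higher small RNA genes include the Argonautes of somatic microRNA and siRNA pathways *alg-1* (1.82), *alg-2* (1.21), *nrde-3* (1.60) and *sago-1* (1.87, and 1.24 without F4 sterile replicate 2).

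In the stem cell niche, Notch signalling through GLP-1 keeps germ cells mitotic, FBF proteins repress entry into meiosis and GLD-1 promotes it. *glp-1* had 608, 521 and 608 CPM in F4 sterile replicates 1 to 3 and 383, 403 and 383 CPM in P0 (0.57 ± 0.08, adjusted p = 0.00011). It lies on chromosome III, so the generation and the *qC1* chromosome cannot be told apart for this gene. Its targets *lst-1* (0.01) and *sygl-1* (−0.10) were not called. *gld-1* had 976, 821 and 876 CPM in F4 sterile and 1570, 1488 and 1412 CPM in P0 (−0.74 ± 0.09, adjusted p = 3.9e-05), and *fbf-1* (−0.64) and *fbf-2* (−0.59) were lower. Of 26 oocyte and maternal RNA-binding proteins 9 were lower (34.6%) and 2 higher. Of 17 genes of the yolk receptor, eggshell and egg activation 8 were lower (47.1%) and 0 higher. Over all genes tested 16.8% were lower, and above 200 CPM in P0 42.3%. The yolk receptor *rme-2* had 1610, 1168 and 1574 CPM in F4 sterile and 2474, 2362 and 2336 CPM in P0 (−0.72 ± 0.12, adjusted p = 0.00036). Of 142 sperm protein genes only 8 could be tested, with 3 higher and 2 lower. All 142 summed to 273 to 296 CPM in F4 sterile and 254 to 268 CPM in P0, with 22 at 0 in F4 sterile and 54 in P0. The 20 sperm markers summed to 4.60 to 9.57 CPM in F4 sterile and 0.959 to 2.67 CPM in P0. Of these 20, 8 were at 0 in P0 while none was at 0 in F4 sterile. Counts of 0 also depend on depth, and 3 counts over a group equalled 0.146 CPM in F4 sterile and 0.205 CPM in P0.

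**Figure D4:**
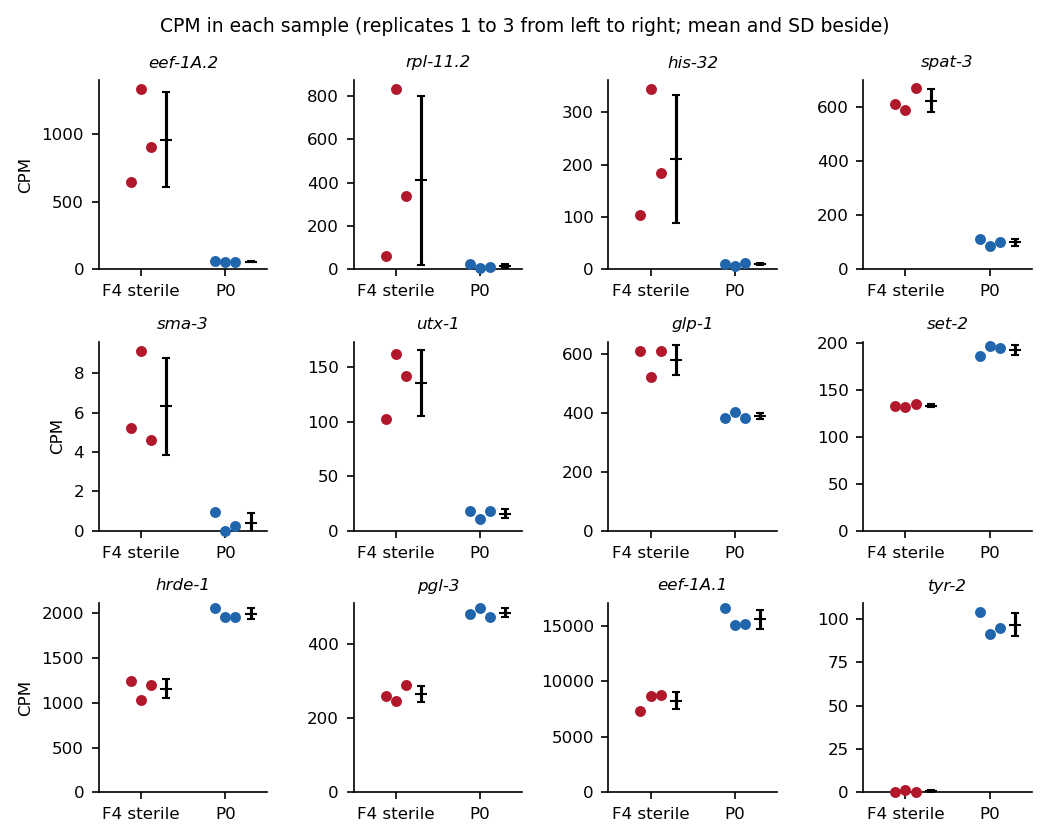
CPM in each F4 sterile library (left) and each P0 library (right) for 12 genes, on linear axes from 0, with the group mean and SD. The genes from *eef-1A.2* to *glp-1* lie above P0 in every F4 sterile library, for example *eef-1A.2* at 641 to 1331 CPM against 51.8 to 61.1 CPM, and *set-2*, *hrde-1*, *pgl-3*, *eef-1A.1* and *tyr-2* lie below it.

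Loss of a well-expressed gene was rare. Of 3857 genes with at least 50 CPM in P0, 1112 were lower in F4 sterile, but only 39 were lower by 1 or more on the log2 scale, and 43 were higher by as much. The 39 ranged up to 72 with a minimum of 20 CPM and down to 21 with a minimum of 100 CPM, and they were 59, 69 and 60 without P0 replicates 1, 2 and 3. Of the 39, 1 was X-linked and 6 were on chromosome III. The deepest loss was *tyr-2*, a tyrosinase-like gene (chromosome III, 13744121 to 13747186), with 0.307, 1.41 and 0.418 CPM in F4 sterile replicates 1 to 3 and 103.8, 90.9 and 94.5 CPM in P0. It was 135-fold lower in the means, and its log2 fold change of −6.44 ± 0.39 (adjusted p = 3.8e-07) was −7.20 without F4 sterile replicate 2. Fertile homozygotes had already lost it, with means of 0.179 CPM in F4 fertile and 0.506 CPM in F2 fertile. F4 sterile over F4 fertile was not called (1.12, adjusted p = 0.18). For this gene too the generation and the balancer chromosome cannot be told apart. *clp-7*, a calpain protease gene on chromosome IV, had 20.7, 23.5 and 21.7 CPM in F4 sterile and 111, 95.4 and 86.1 CPM in P0 (−2.13 ± 0.13, adjusted p = 4.2e-07). It too was low in fertile homozygotes, with means of 21.8 CPM in F4 fertile and 26.3 CPM in F2 fertile. F4 sterile over F4 fertile was 0.01 (adjusted p = 0.97). *tofu-2*, which acts in processing of germline piRNAs, had 59.3, 20.7 and 30.1 CPM in F4 sterile and 121, 148 and 121 CPM in P0 (−1.82 ± 0.29, adjusted p = 0.00033).

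Several genes of small RNAs and methyl donors stood among the 39 and are named here after their values were seen. *prde-1*, needed for piRNA transcription, had 26.99, 19.04 and 25.9 CPM in F4 sterile replicates 1 to 3 and 49.4, 56.95 and 56.1 CPM in P0 (−1.17 ± 0.17, adjusted p = 0.00019). *sams-3*, a synthase of the methyl donor S-adenosylmethionine, had 88.2, 77.99 and 99.1 CPM in F4 sterile and 261, 281 and 241 CPM in P0 (−1.56 ± 0.12, adjusted p = 1.7e-06), and its neighbour *sams-4* was lower by −1.04 ± 0.10. *sams-3* and *sams-4* are closely related copies, so unique reads may divide unevenly between them. *cey-2*, a Y-box protein that packs maternal mRNA, had 1180, 981 and 1609 CPM in F4 sterile and 2693, 2776 and 2756 CPM in P0 (−1.13 ± 0.19, adjusted p = 0.00042).

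Below 50 CPM, the uterine lumen genes fell. *ule-1*, which encodes a protein secreted into the uterus, had 0, 0.109 and 0.627 CPM in F4 sterile replicates 1 to 3 and 11.7, 10.1 and 7.68 CPM in P0 (−4.27 ± 0.58, adjusted p = 9.8e-05), and *ule-4* was lower too (−3.72). *ule-3* (−2.61, adjusted p = 0.035) overlapped between the groups and lost its call without P0 replicate 1 (−1.14, adjusted p = 0.33), F4 sterile replicate 2 (−2.12, 0.088) or F4 sterile replicate 3 (−2.47, 0.087), and was at −3.89 without F4 sterile replicate 1. The markers of spermatheca and uterus had 4 of 5 tested lower, and summed to 934 to 1059 CPM in F4 sterile and 1529 to 1641 CPM in P0, of which the filamin *fln-1* made up the most. How much uterine tissue the dissections carried was not tested.

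Paralogous genes changed in opposite directions in several families. This comparison was chosen after values were seen and carries no test of its own. Of the tested pairs whose symbols differ only after the point, 12 had one member higher and the other lower, 15 had both higher, 6 had both lower, 47 had a single member called and 33 had none. In 8 of the 12 pairs the higher member was X-linked. *eef-1A.2* against *eef-1A.1* is described above. *rpl-11.2* (X) had 59.8, 832 and 340 CPM in F4 sterile replicates 1 to 3 and 23.3, 7.16 and 13.2 CPM in P0 (4.69 ± 0.96, adjusted p = 0.0017, and 3.56 without F4 sterile replicate 2), whereas *rpl-11.1* had 1231, 1591 and 1660 CPM in F4 sterile and 2630, 2212 and 2168 CPM in P0 (−0.65 ± 0.13, adjusted p = 0.0017). Of the complex III core proteins, *ucr-2.2* (X) had 48.8, 72.1 and 75.0 CPM in F4 sterile and 6.18, 3.58 and 6.72 CPM in P0 (3.46 ± 0.23, adjusted p = 7.4e-07), and *ucr-2.3* had 94.6, 75.9 and 99.1 CPM in F4 sterile and 239, 249 and 217 CPM in P0 (−1.39 ± 0.12, adjusted p = 3.6e-06). The catalytic subunit of succinate dehydrogenase followed the same form, with *sdha-1* (X) higher (3.19) and *sdha-2* lower (−0.46). The pair *rpl-25.1* (3.88, and 2.27 without F4 sterile replicate 2) and *rpl-25.2* (−0.51) was less stable, since *rpl-25.2* overlapped between the groups and lost its call without F4 sterile replicate 1 (adjusted p = 0.062), F4 sterile replicate 3 (0.076) or P0 replicate 1 (0.065).

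**Figure D5:**
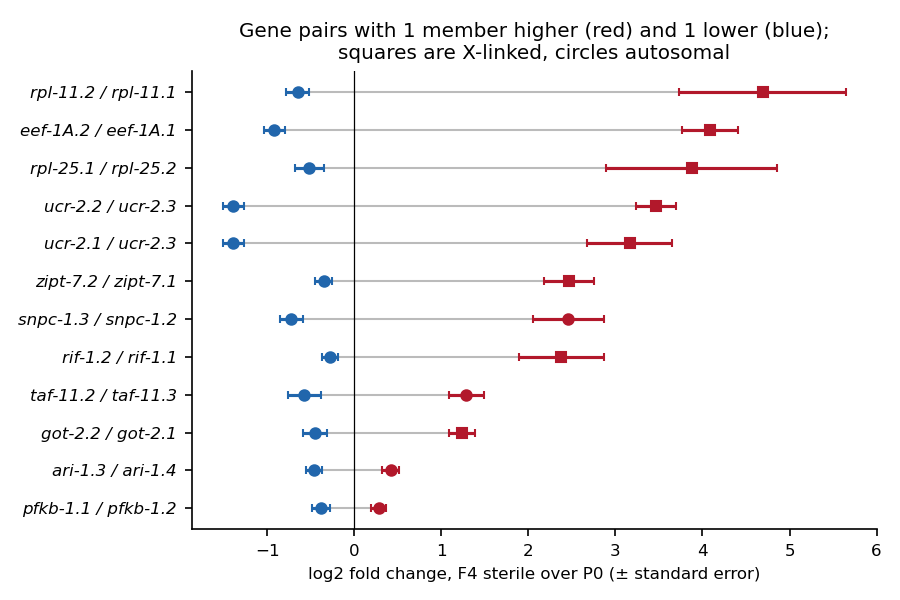
Log2 fold change of F4 sterile over P0 for the 12 paralogous pairs that changed in opposite directions, with bars of 1 standard error, higher members in red, lower in blue and X-linked members as squares. The pair *rpl-11.2* (4.69, and 3.56 without F4 sterile replicate 2) and *rpl-11.1* (−0.65) and the pair *eef-1A.2* (4.09) and *eef-1A.1* (−0.92) lie at the wide end.

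Sterile gonads differed from fertile gonads of the same generation and genotype in far fewer genes. Of the 8746 genes, 249 (2.85%) exceeded and 38 (0.434%) fell below their F4 fertile level in F4 sterile. Of the genes higher than in P0, 244 were also higher than in F4 fertile, and of the genes lower than in P0, 35 were also lower than in F4 fertile. *mig-6* exceeded its F4 fertile level (log2 fold change 2.90, adjusted p = 0.0019), as did 8 of the 24 basement membrane and integrin genes in all. *tbb-6* (4.22, adjusted p = 0.020), *fmi-1* (3.102, adjusted p = 0.014) and *lin-14* (2.13, adjusted p = 0.027) were higher too. Among the germline genes, *wago-4* (−0.60, adjusted p = 0.019), *rme-2* (−0.51, adjusted p = 0.038), *hrde-1* (−0.42, adjusted p = 0.041) and *pgl-3* (−0.35, adjusted p = 0.037) were lower than in F4 fertile, and so were *sams-3* (−0.71, adjusted p = 0.019) and *ule-1* (−2.73, adjusted p = 0.029). *set-2* did not pass the test (0.08, adjusted p = 0.55).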

How the data were processed

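RNA from dissected gonads was depleted of ribosomal RNA and sequenced. The authors used TopHat2 for mapping to the transcriptome of build WS220, kept unique reads, removed ribosomal RNA reads and deposited whole-number counts per gene from HTSeq, without normalization. Tool versions and the strand setting are not given in the sources used here, so reads of overlapping and antisense genes cannot be separated. A second table of 12 columns of normalized values and of the authors' DESeq2 fold changes and adjusted p-values was not used.

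Groups came from the sample titles. Reads on no gene (8.23% to 14.4% per library) or ambiguous (1.79% to 2.24%) were left out. edgeR 4.0.16 in R 4.3.3 (TMM, its expression filter, quasi-likelihood test, prior count 2) was fitted to all 12 libraries with 1 coefficient per group. Of 26894 genes with a count, 8746 passed the filter, and adjusted p-values under 0.05 were called. The standard error (SE) was derived from the fold change and its F statistic. The sources say that lineages are separate, so p-values cover the spread between 3 lineages. A floor of 3 counts over a group was used for lower bounds, which cover counting error only. On simulated counts of the F4 sterile and P0 comparison over 8746 genes, the test recovered 66.7% of 105 genes changed 2-fold and 92.6% of 95 changed 4-fold, with 5.95% of 168 calls false.

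Alternatives were RLE, upper quartile and library total scaling, 2 other filters, DESeq2 1.42.0, only the 6 libraries, the library-name prefix or replicate number as a covariate, chromosome III left out, and each of the 6 libraries left out. Library totals as a setting for calls were added after seeing the data. Gene lists and markers, 57 in all, were described by counts and medians. Members, lists and tests were chosen with earlier results of these data known. Named genes were *set-2*, the 12 largest rises and falls, the 10 largest gains and losses of CPM, the 8 highest gained genes, and up to 4 members per list by adjusted p together with members whose role is explained.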

Additional observations from a re-analysis of the deposited data

How the results depend on the processing

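No called gene among those named changed sign under the alternatives run, but 14 of 56 list medians, all at most 0.364 from 0 as reported, changed sign under at least 1 of them. The count of genes higher in F4 sterile stayed between 1742 and 2799. The X-linked share of it lay between 31.01% and 36.01% without single libraries. It was 26.62% with library totals, 29.93% with the library-name prefix as a covariate and 39.98% with chromosome III left out. Lower genes numbered 802 with library totals, 1131 with only the 6 libraries, and 1355 to 1666 without single libraries. They numbered 1662 with chromosome III left out, 1729 with RLE and 1741 with the library-name prefix as a covariate. The well-expressed genes lost numbered 25 with library totals, 72 and 21 with minimums of 20 and 100 CPM, and 48 to 69 without single libraries. The silent genes gained numbered 204 with a filter at 1 CPM, 239 with DESeq2, 363 when every gene with a count was tested, 32 with only the 6 libraries, and 43 to 128 without single libraries. The cause was not tested. Of the 247 genes named by the rule, between 1 and 13 lost their call in any of the 16 alternatives.

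With the replicate number as a block there were 2324 higher and 1599 lower genes. The numbers were not shown to pair the libraries, since the deviations of same-numbered F4 sterile and P0 libraries from their group means correlated at −0.14, −0.11 and 0.04. Depth limited the genes at low level, and the 14654 silent genes that did not pass the filter say nothing on whether they are expressed.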

Other observations

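Non-coding and pseudogene transcripts had their own balance. Of 63 tested snoRNAs, guides of ribosomal RNA modification, 14 were lower in F4 sterile than in P0 and 0 were higher (median log2 fold change −0.38). Of 292 tested pseudogenes 80 were lower and 23 higher (median −0.36). *prg-2*, a relative of the piRNA Argonaute gene *prg-1* that the annotation lists as a pseudogene, was lower by −1.21. Of 20 snRNAs 0 were called in either direction by edgeR (median 0.13).

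The neighbouring heat shock genes *F44E5.4* and *F44E5.5*, singled out after their values were seen, had 6.44, 21.2 and 10.5 CPM and 6.59, 17.8 and 7.73 CPM in F4 sterile replicates 1 to 3, against 0.421, 0.596 and 0.480 CPM and 1.26, 0.895 and 0.959 CPM in P0. Their log2 fold changes were 4.03 and 3.01 (adjusted p = 0.00014 and 9.5e-05), and 3.35 and 2.34 without F4 sterile replicate 2. Both were also higher than in F4 fertile (2.95 and 2.99, adjusted p = 0.020 and 0.0096). The copies are nearly identical, so unique reads may divide unevenly between them. Of 20 apoptosis and engulfment genes 2 were higher and 2 lower. The 34 tested genes that the study had picked for RNAi were all higher (median 2.67), a direction that is not independent, since they were chosen on these libraries. The same holds for those of them named above, among them *eef-1A.2*, *rpl-11.2*, *aldo-1*, *his-8*, *nhr-48*, *nhr-57*, *hbl-1*, *daf-19*, *sma-3*, *kin-29*, *pek-1* and *glp-1*.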
